A study of Mus musculus with 9 samples.

Results

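Expression of 9 transcription factors that set and maintain hepatocyte identity was followed in liver of KKAy mice, an obese, diabetes-prone mouse strain. The factors were Hnf4a, Foxa1, Foxa2, Foxa3, Cebpa, Cebpb, Onecut1, Prox1 and Nr5a2. They were chosen by name, and every probe set that the platform annotation gives to 1 of these genes alone was used. All 9 genes were found, among 18193 genes named on the array, with 19 of the 45037 probe sets tested. The untreated group (KKAy mice, treatment given as none), the insulin group and the BI group had 3 single-channel Affymetrix arrays each, from treatment groups of 8 to 12 mice. All mice were 8 weeks old, and the labels give a chow with 34% fat for every array but BI replicate 2. The insulin group received an intraperitoneal injection of 100 µL of the medium DMEM with insulin at 40 µg/mL. The BI group received the same total insulin, of which 11% had been modified by biomineralization in situ. The labels do not say whether the untreated mice are the protocol's medium-injected controls, nor whether an array came from 1 animal or from a pool. The p-values are thus set against a spread between samples that could be technical alone. The growth protocol of BI replicate 2 describes rats in place of mice, and it was analysed in the group its label names.

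Hepatocyte identity rests on a small set of factors that bind the regulatory regions of liver genes and of each other. The FOXA proteins are pioneer factors, which can bind their sites in closed chromatin. HNF4A, a nuclear receptor, and the C/EBP proteins, leucine zipper factors, then activate most genes of the mature liver. ONECUT1 (also called HNF6), PROX1 and NR5A2 (also called LRH-1) shape bile acid, lipid and glucose metabolism, and several of these factors activate each other's genes.

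Upstream sequence was taken for each factor from RefSeq promoter windows (build GRCm38.p6), of which the 9 genes had 14, and the 250 bases before each annotated start were searched on both strands. The motifs were ATCAAT (the core bound by ONECUT1), TGTTTAC (the core bound by FOXA proteins), CAAAGTCCA (an HNF4A core), CAAGGTCA (the NR5A2 core), CCAAT (the CCAAT box) and the TATA box, spelled TATAAA. The 4 windows shown are those in which a core of one of the factors was found, and that of the factor which varied most. The Hnf4a and Foxa2 windows are the 2 of 14 with the ONECUT1 core, the Foxa1 window is the 1 of 14 with the FOXA core, and the Onecut1 window held none of the motifs. They lie at chr2:163506607-163506856 (Hnf4a, plus strand, the first of 2 windows), chr12:57546112-57546361 (Foxa1, minus strand), chr2:148046970-148047219 (Foxa2, minus strand, the first of 3) and chr9:74861671-74861920 (Onecut1, plus strand). Capitals mark motif matches on either strand.
Hnf4a: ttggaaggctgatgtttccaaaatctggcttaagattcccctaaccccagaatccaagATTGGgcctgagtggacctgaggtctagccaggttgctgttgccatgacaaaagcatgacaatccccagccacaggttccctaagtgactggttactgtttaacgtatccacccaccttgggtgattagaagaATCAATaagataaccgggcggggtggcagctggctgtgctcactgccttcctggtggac
Foxa1: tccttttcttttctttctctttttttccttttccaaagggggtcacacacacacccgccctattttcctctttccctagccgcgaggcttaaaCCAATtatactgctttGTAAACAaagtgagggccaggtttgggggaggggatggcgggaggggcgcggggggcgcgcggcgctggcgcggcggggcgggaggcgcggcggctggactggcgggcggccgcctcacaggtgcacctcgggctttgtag
Foxa2: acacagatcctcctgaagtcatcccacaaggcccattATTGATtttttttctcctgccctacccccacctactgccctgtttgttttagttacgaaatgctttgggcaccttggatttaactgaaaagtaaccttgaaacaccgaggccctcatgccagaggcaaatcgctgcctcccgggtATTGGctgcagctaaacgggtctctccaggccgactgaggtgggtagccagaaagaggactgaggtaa
Onecut1: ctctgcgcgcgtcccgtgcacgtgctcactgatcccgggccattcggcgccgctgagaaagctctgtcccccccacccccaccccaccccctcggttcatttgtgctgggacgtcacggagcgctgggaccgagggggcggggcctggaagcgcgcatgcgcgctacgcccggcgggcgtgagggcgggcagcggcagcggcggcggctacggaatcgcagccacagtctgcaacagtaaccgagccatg

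In these windows the first base of the ONECUT1 core stood at -59 in Hnf4a and at -213 in Foxa2 relative to the start, and the FOXA core at -141 in Foxa1. Among all 32851 windows 6.72% held the ONECUT1 core, 3.17% the FOXA core, 33.8% the CCAAT box and 12.4% the TATA box. The CCAAT box was present in 6 and the TATA box in 5 of the 14 windows of the factors, and neither the HNF4A core (0.384% of all windows) nor the NR5A2 core (1.33%) was found in them. A match describes these letters only. Which start site a probe set reads was not determined.

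The deposited values are log2 signals, with array medians between 6.12 and 6.30. No detection call or background value was used, so whether a dim signal was above background is not known. A brighter probe set does not mean more transcript than that of another gene, and levels are compared only between arrays. Of 15 hepatocyte markers 0 had a group mean below the median of all values on the arrays. Alb, the main plasma protein of hepatocytes, lay between 15.15 and 15.45 and the thyroid hormone carrier Ttr between 15.24 and 15.61. Dimmer ones of the list were Asgr2, between 9.33 and 10.30, and Ass1, between 6.87 and 9.27. Of the bile duct markers the keratin Krt19 lay between 4.06 and 6.09 and Sox9 between 5.56 and 8.20. The pancreatic enzyme gene Cpa1 lay between 1.02 and 3.34, and Cela2a between 5.84 and 6.65. As an mRNA signal from whole liver cannot show its cell of origin, fewer cells of a type and less RNA per cell cannot be told apart. Gapdh signal, read as a gauge of RNA integrity, was 0.26 to 0.65 higher at the 3' end of the transcript than at the 5' end.

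No factor passed the test in any comparison, and the groups overlapped in every comparison of the 9 but that of Foxa3 between BI and insulin. Each factor is represented by its brightest probe set, the one with the highest mean over the 9 arrays. Of the 9 factors, 0 passed with insulin against no treatment, 0 with BI against no treatment and 0 with BI against insulin (limma, Benjamini-Hochberg adjusted p 0.999 or above for all 19 probe sets). Over all probe sets tested the same rule called 0% with insulin, 0.0111% with BI against no treatment and 0% with BI against insulin. A moderated F test over the 3 groups together called 0 of the 9 factors (all probe sets 0%). At an unadjusted p under 0.05, that test held 0 of 9 brightest probe sets and 1 of all 19 (4.4% of all probe sets). In the pairwise comparisons, an unadjusted p under 0.05 was reached by 0 of 9 factors with insulin (4.47% of all probe sets), 0 with BI against no treatment (4.48%) and 1, Foxa3, with BI against insulin (4.04%). The 2 groups did not overlap in 0 of 9 factors with insulin (9.19% of all probe sets), in 0 with BI against no treatment (9.21%) and in 1, again Foxa3, with BI against insulin (9.6%). Counts of 0 or 1 among 9 factors are near these background shares. The median difference of the 9 factors was 0.03, -0.03 and -0.01 in the 3 comparisons in that order, beside 0.02, 0.00038 and -0.03 over all genes.

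**Figure D1:**
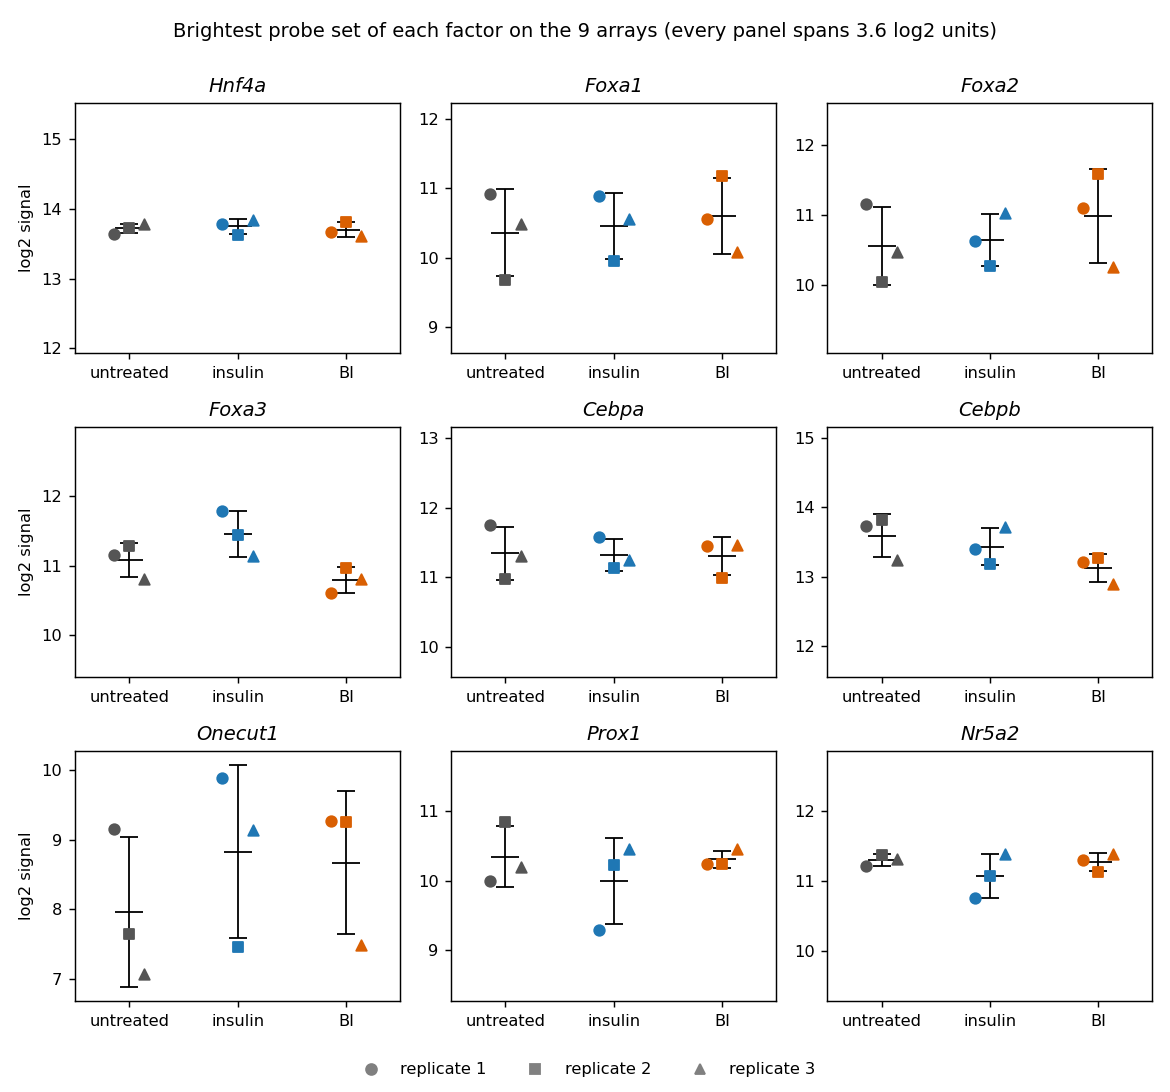
Log2 signal (y axis) of the brightest probe set of each of the 9 factors, for the untreated, insulin and BI groups (x axis); symbols are arrays by replicate number and bars the mean ± SD of 3 arrays. Every panel has the same height in log2 units, so that Hnf4a, which ranged over 0.235, appears flat beside Onecut1, which ranged over 2.81.

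**Figure D2:**
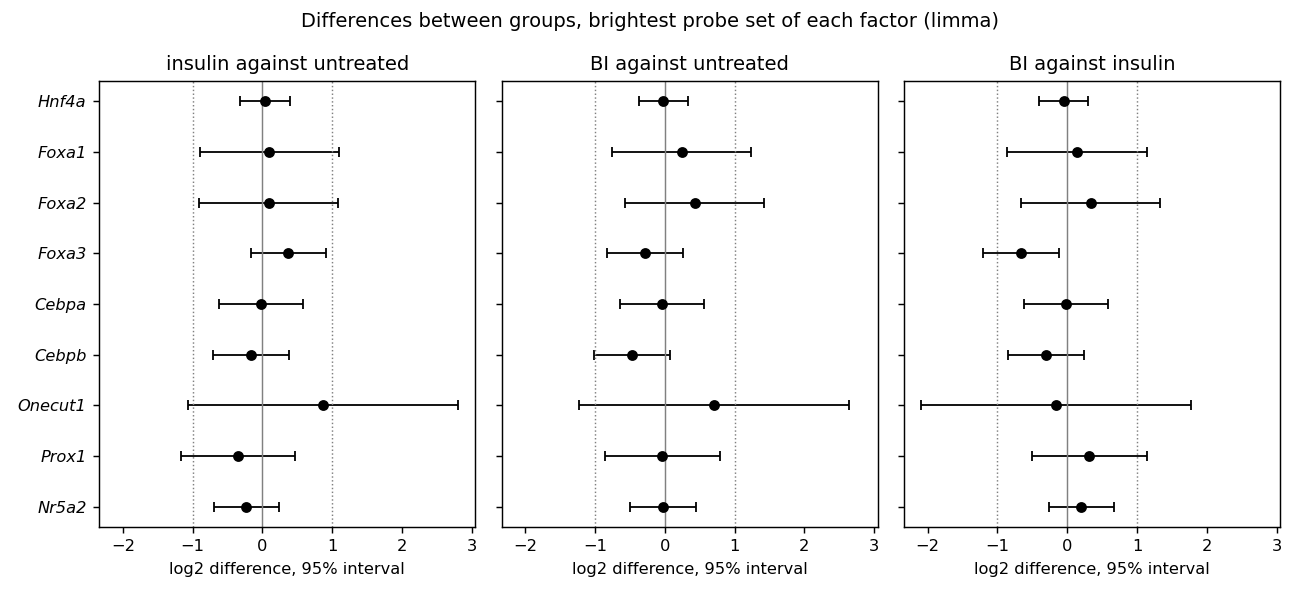
Log2 difference between groups (x axis) of the brightest probe set of each factor (y axis), with its 95% interval from the limma fit; dotted lines mark a 2-fold change. The interval of Foxa3 in BI against insulin (-1.20 to -0.12) lies below 0, and those of Onecut1 reach beyond 2-fold on either side.

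Hnf4a, the nuclear receptor on which most hepatocyte genes depend, had the smallest range of the 9 factors on its brightest probe set, though not on its others. That probe set read 13.65, 13.73 and 13.79 on the untreated arrays, 13.78, 13.63 and 13.84 with insulin, and 13.67, 13.82 and 13.61 with BI. The 3 groups overlapped fully, and the 9 arrays spanned 0.235. The difference was 0.03 with insulin (95% interval -0.32 to 0.39) and -0.02 with BI against no treatment (-0.38 to 0.34), so that a change of 2-fold in either direction lay outside these intervals. The other 3 probe sets of Hnf4a stood at mean levels of 11.89, 9.94 and 7.22, with ranges of 1.01, 0.679 and 0.881 over the 9 arrays, each wider than that of the brightest Nr5a2 probe set (0.636). They did not follow the brightest one closely from array to array (Pearson r = 0.54, -0.36 and 0.58 over 9 arrays, as a description), and none separated the groups. On the dimmest of the 4, insulin differed from no treatment by -0.01 (95% interval -0.74 to 0.71).

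Of the FOXA genes, Foxa1 and Foxa2 encode the factors that open liver enhancers in the embryo, and each varied widely inside every group. Foxa1 read 10.92, 9.68 and 10.49 without treatment, 10.89, 9.95 and 10.55 with insulin, and 10.56, 11.18 and 10.08 with BI. The lowest value was on untreated replicate 2 and the highest on BI replicate 2, the array whose growth protocol describes rats. Foxa2 read 11.15, 10.03 and 10.47 without treatment, 10.62, 10.27 and 11.03 with insulin, and 11.10, 11.59 and 10.25 with BI. The same 2 arrays were at the ends of its range, and all groups overlapped. BI against no treatment stood at 0.24 ± 0.43 for Foxa1 and 0.43 ± 0.43 for Foxa2 (log2 difference ± SE), and insulin against no treatment at 0.10 ± 0.43 and 0.09 ± 0.43. Without BI replicate 2 the BI differences against no treatment were -0.05 for Foxa1 and 0.12 for Foxa2, and without untreated replicate 2 they were -0.10 and 0.17.

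Foxa3, the FOXA gene whose activity rises late in liver development and persists in the adult, gave the 1 separation among the brightest probe sets. It read 11.15, 11.29 and 10.81 on the untreated arrays, 11.79, 11.44 and 11.14 with insulin, and 10.60, 10.97 and 10.81 with BI. All 3 insulin arrays lay above all 3 BI arrays, while the untreated arrays overlapped with those of each treatment. BI stood below insulin by a log2 difference of -0.66 ± 0.23 (0.633-fold, 95% interval -1.20 to -0.12), which did not pass after adjustment over all probe sets (limma, adjusted p = 1.00). Insulin against no treatment was 0.37 ± 0.23 and BI against no treatment -0.29 ± 0.23. These 2 values share the untreated arrays. Foxa3 has 1 probe set on the array, so no other probe set could be set beside it. The excess of Gapdh signal at the 3' end separated the same 2 groups in the same direction: it was 0.55, 0.54 and 0.48 on the insulin arrays and 0.39, 0.26 and 0.42 on the BI arrays, with untreated arrays at 0.28, 0.31 and 0.65. Its part in the Foxa3 values was not tested.

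Cebpa and Cebpb encode C/EBP proteins, of which C/EBPα holds hepatocytes in their resting, metabolically active state and C/EBPβ responds to hormones, fasting and inflammation. Cebpa read 11.75, 10.98 and 11.30 without treatment, 11.57, 11.13 and 11.24 with insulin, and 11.45, 10.99 and 11.47 with BI. Its group means lay within 0.04 of each other (11.34, 11.32 and 11.30), while single arrays of a group differed by up to 0.77. With BI against no treatment the difference was -0.04 ± 0.26.

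Cebpb had 2 probe sets, which ran together across the arrays (Pearson r = 0.93, Spearman rho = 0.92, 9 arrays, as a description). The brighter read 13.73, 13.81 and 13.24 without treatment, 13.39, 13.19 and 13.71 with insulin, and 13.21, 13.26 and 12.90 with BI. BI replicate 2 lay just above untreated replicate 3, so the groups overlapped by 1 pair of arrays, and the difference was -0.47 ± 0.23 (95% interval -1.01 to 0.08). The dimmer probe set read 10.91, 11.09 and 10.59 without treatment, 10.76, 10.35 and 10.78 with insulin, and 10.27, 10.33 and 10.11 with BI. There the 3 BI arrays were the lowest of the 9, below every untreated and every insulin array. BI differed from no treatment by -0.63 ± 0.21 (0.645-fold, 95% interval -1.11 to -0.15, limma adjusted p = 0.999) and from insulin by -0.39 ± 0.21 (95% interval -0.87 to 0.08). Neither value passed, and the choice to single out this probe set was made after its values were seen. In BI against no treatment and in BI against insulin, 2 of the 19 probe sets each had groups without overlap. The shares over all probe sets were 9.21% and 9.6%.

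Cebpb is also active in myeloid cells, so the markers of those cells were read beside it. Of the neutrophil markers 7 of 8 were measured, and the log2 of their summed signal ran from 10.73 to 13.29 without treatment, from 10.77 to 12.08 with insulin and from 10.19 to 11.57 with BI, with the alarmin gene S100a8 at 12.74 on untreated replicate 2, the array with the highest Cebpb. All 10 Kupffer cell and macrophage markers were measured, with summed signals of 13.77 to 14.59, 14.06 to 14.61 and 13.85 to 14.77 in the same order. None of these markers passed the test. In BI against insulin all 10 macrophage markers were lower (median -0.28, beside -0.03 over all genes) and 6 of 7 neutrophil markers were lower (median -0.33), the direction of the Cebpb values in that comparison. With BI against no treatment 5 of 10 macrophage markers and 5 of 7 neutrophil markers were lower. With insulin against no treatment 8 of 10 macrophage markers were higher (median 0.32), while both Cebpb probe sets were lower (-0.16 and -0.24). There 5 of 7 neutrophil markers were lower (median -0.32). No marker of either list was at 0 on any array (the lowest value was 2.45, of Marco). Of the 7 neutrophil markers 2 had a group mean below the median of all values without treatment, 3 with insulin and 3 with BI. The same held for 1 of the 10 macrophage markers in each group. Whether such dim signals exceed background is not known. The part of these markers in the Cebpb values was not tested.

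Onecut1, whose product regulates liver and bile duct development and hepatic glucose metabolism, varied most of the 9 factors. It read 9.16, 7.64 and 7.08 without treatment, 9.89, 7.47 and 9.14 with insulin, and 9.27, 9.26 and 7.48 with BI. The 9 values fell into a lower set of 4 arrays (7.08 to 7.64) and a higher set of 5 (9.14 to 9.89) with a gap between them, and each group had arrays in both. The second Onecut1 probe set, with a mean level of 8.29, followed the first (Pearson r = 0.89, Spearman rho = 0.80, 9 arrays, as a description). It read 8.54, 7.29 and 7.05 without treatment, 9.22, 7.94 and 8.72 with insulin, and 8.47, 9.27 and 8.07 with BI. These values ran from 7.05 to 9.27 without a gap as wide as that of the first probe set. The log2 difference from no treatment was 0.87 ± 0.83 with insulin and 0.71 ± 0.83 with BI on the first probe set, and 1.01 ± 0.52 and 0.98 ± 0.52 on the second (95% intervals -0.21 to 2.22 and -0.23 to 2.20). Single arrays moved these values: on the first probe set the difference with insulin ran from 0.34 without insulin replicate 1 to 1.55 without insulin replicate 2, and that with BI from 0.27 without untreated replicate 3 to 1.31 without untreated replicate 1. The intervals were wide (-1.06 to 2.80 on the first probe set with insulin), so a rise of 2-fold was not detectable for this gene with 3 arrays per group. BI against insulin was -0.16 ± 0.83 and -0.02 ± 0.52 on the 2 probe sets.

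Prox1, a homeobox factor of hepatocytes and of lymphatic vessels, read 9.9999, 10.84 and 10.20 without treatment, 9.29, 10.23 and 10.46 with insulin, and 10.24, 10.25 and 10.45 with BI on its brightest probe set. Insulin replicate 1 was the lowest of the 9 arrays, and the groups overlapped. The difference with insulin was -0.35 ± 0.35, which was -0.0035 without that array. Insulin replicate 1 was also far below the rest on the second Prox1 probe set (3.04 there, 7.11 to 7.92 on the other 8 arrays). On that probe set the BI arrays (7.11, 7.41 and 7.47) lay just below the untreated ones (7.62, 7.92 and 7.49), with a difference of -0.34 ± 1.17 in the fit. This was 1 of the 2 separations among the 19 probe sets in this comparison, beside 9.21% of all probe sets. The third probe set, at a mean of 6.97, showed no separation. Of 6 lymphatic endothelial markers 5 were measured. The log2 of their summed signal was 11.03 to 11.95 without treatment, 11.32 to 11.96 with insulin and 11.32 to 11.64 with BI. Most of this sum is Reln (10.50 to 11.46 over the 9 arrays), which was also listed as a stellate cell marker. Lyve1 was also listed as a marker of sinusoidal endothelium, so the sum is not particular to lymphatic cells. The part of these markers in the Prox1 values was not tested.

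Nr5a2, the nuclear receptor that drives bile acid synthesis genes, had on its brightest probe set the smallest range after that of Hnf4a, 0.636 over the 9 arrays. Its brightest probe set read 11.22, 11.38 and 11.31 without treatment, 10.75, 11.07 and 11.39 with insulin, and 11.30, 11.13 and 11.39 with BI. Insulin replicate 1 was again the lowest array. The difference was -0.23 ± 0.20 with insulin and -0.03 ± 0.20 with BI against no treatment (95% interval -0.50 to 0.44). Without insulin replicate 1 the difference with insulin was -0.07, and as the mean of the 4 probe sets it was -0.02. The next 2 probe sets by level followed the first (r = 0.80 and 0.73 over 9 arrays, as a description). The fourth, dimmer than the array medians at 5.20, was at 5.73, 5.71 and 5.75 with insulin, above the untreated values of 5.12, 5.47 and 5.43. This was the 1 of 19 probe sets whose groups did not overlap with insulin against no treatment, beside 9.19% of all probe sets. Its BI arrays read 5.71, 1.91 and 6.02.

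Precision differed widely between the factors. The half-width of the 95% interval ran from 0.36 for Hnf4a to 1.93 for Onecut1, beside a median of 0.95 over all probe sets. The interval lay within a 2-fold change in either direction for 5 of 9 factors with insulin, 5 of 9 with BI against no treatment and 4 of 9 with BI against insulin. Values of the other factors leave changes larger than that undetermined.

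Whether the factors varied together from array to array was asked with exact permutation tests of Pearson's r and of Spearman's rho over the 9 arrays. Both were two-sided, and each was adjusted by Benjamini-Hochberg over the 36 pairs. The 8 pairs with Onecut1 are not interpreted, as the values of its brightest probe set fall into 2 sets. That choice was made after the values were seen. By Pearson's r none of the 36 pairs passed (smallest adjusted p = 0.0884). By Spearman's rho 1 of the 36 passed, Foxa1 with Foxa2. For Pearson's r an unadjusted p under 0.05 was reached by 5 of the 36 and by 3 of the 28 without Onecut1. The rest were Onecut1 with Foxa1 (r = 0.75, exact permutation p = 0.0272, adjusted 0.211) and with Foxa2 (r = 0.73, exact permutation p = 0.0293, adjusted 0.211). Foxa1 and Foxa2 had the highest r, 0.87 (exact permutation p = 0.00246, adjusted 0.0884), with a Spearman rho of 0.93 (exact permutation p = 0.00075, adjusted 0.0270). Within groups, as deviations from the group means, r was 0.88 (exact permutation within groups p = 0.0185, adjusted 0.333). Without untreated replicate 2 and BI replicate 2, the arrays farthest from the median, it was 0.73 over 7 arrays (exact permutation p = 0.0764), so the unadjusted p rests in part on those arrays. Prox1 and Nr5a2 had an r of 0.87 (exact permutation p = 0.00506, adjusted 0.0910) and a rho of 0.72 (exact permutation p = 0.0369, adjusted 0.442). Their r within groups was 0.85 (exact permutation within groups p = 0.0185, adjusted 0.333). Without untreated replicate 2 and insulin replicate 1 their r was 0.56, so that this relation rests on those arrays. Foxa3 and Nr5a2 went opposite ways with an r of -0.73 (exact permutation p = 0.0240, adjusted 0.211) and a rho of -0.52 (exact permutation p = 0.162, adjusted 0.804). Their r within groups was -0.72 (exact permutation within groups p = 0.102, adjusted 0.524). Without insulin replicate 1 and BI replicate 1, the arrays farthest from the Foxa3 median, their r was -0.40. Without insulin replicates 1 and 2, the arrays farthest from the Nr5a2 median, it was 0.05, so that this relation rests on those insulin arrays.

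**Figure D3:**
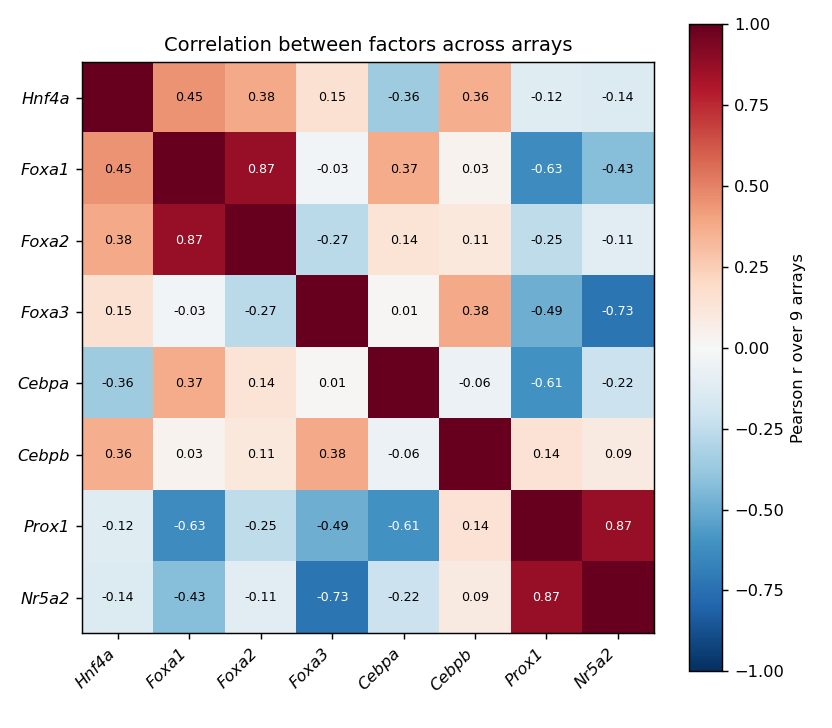
Pearson r (colour and printed value) between the brightest probe sets of 8 of the factors over the 9 arrays. Onecut1 was left out, after its values were seen, because those of its brightest probe set fall into separate sets. Foxa1 with Foxa2 and Prox1 with Nr5a2 both stand at 0.87, and the lowest value is -0.73 for Foxa3 with Nr5a2.

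The gene whose level was most like that of each factor was named by its Pearson r over the 9 arrays among 7833 other genes with a mean level of at least 8. As each was picked as the highest of these, the values are a description with no test. For Foxa2 it was Hhex, the homeobox factor of early liver and bile duct formation, with r = 0.994 and rho = 0.98, and the gene next in line, Avl9, stood at 0.927. Hhex read 13.12, 12.40 and 12.61 without treatment, 12.73, 12.52 and 13.09 with insulin, and 13.10, 13.38 and 12.57 with BI. Its lowest and highest arrays were those of Foxa2, and a difference of 1 in Foxa2 went with 0.65 in Hhex. The r was 0.994 within groups and 0.990 without untreated replicate 2 and BI replicate 2. Against Hhex, Foxa1 stood at r = 0.83 and Hnf4a at 0.36. The 5 arrays with the higher Onecut1 values, replicate 1 of each group among them, were also those with the 5 highest Foxa2, Foxa1 and Hhex values. As the Onecut1 split was set after its values were seen, this match is a description with no test. For the other factors the most alike genes were Ints8 (Hnf4a, r = 0.900), Akap8l (Foxa1, 0.923), Patl1 (Foxa3, 0.962), Tmem147 (Cebpa, 0.966), B230308N11Rik (Cebpb, 0.941), Zfp595 (Onecut1, 0.944), Usp38 (Prox1, 0.947) and Usp47 (Nr5a2, 0.976).

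**Figure D4:**
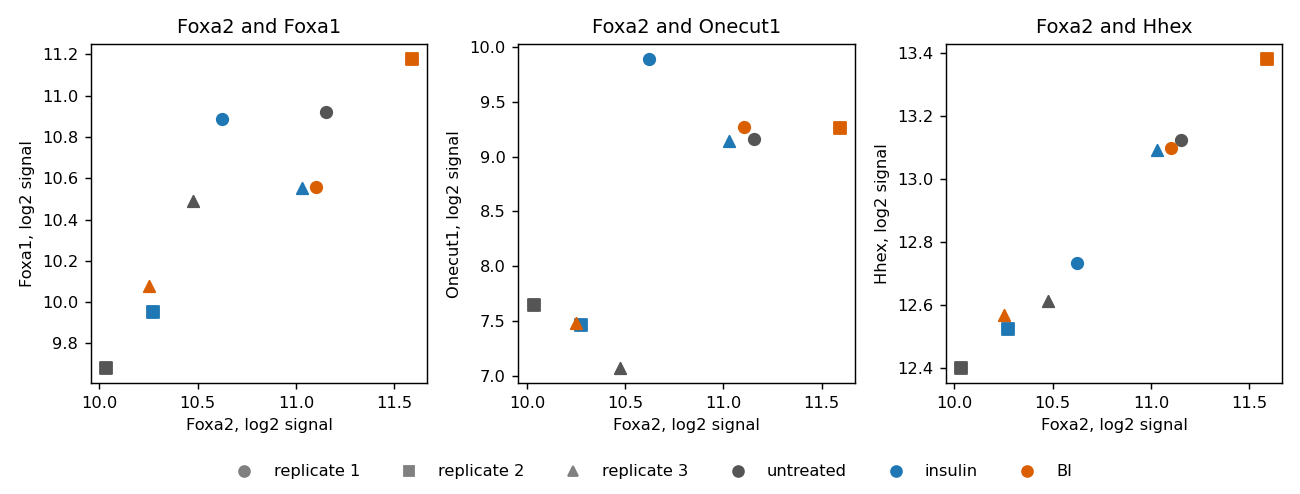
Log2 signal of Foxa1, Onecut1 and Hhex (y axes) against that of Foxa2 (x axes) on the 9 arrays, coloured by group, with the symbol giving the replicate number. The Hhex panel is close to a line (r = 0.994), all groups are spread along it, and Onecut1 splits into arrays at 7.08 to 7.64 and at 9.14 to 9.89.

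Bile duct markers were read beside this pattern, and their part in it was not tested. Of 8 cholangiocyte markers 5 were measured. Their mean level was highest on untreated replicate 2 (6.35), where Foxa1, Foxa2 and Hhex were lowest, and 5.82 on BI replicate 2, where they were highest. The lowest mean level of the markers was on BI replicate 1 (5.20), and untreated replicate 1 and insulin replicate 1 stood at 5.91 and 5.89. Of the 5 markers 3 had a group mean below the median of all values without treatment, 2 with insulin and 3 with BI. The log2 of their summed signal was 8.37 to 9.12 without treatment, 8.44 to 8.70 with insulin and 7.95 to 8.56 with BI. The excess of Gapdh signal at the 3' end was 0.31 on untreated replicate 2 and 0.26 on BI replicate 2. The mean level of 15 hepatocyte markers, all measured, was 13.96 and 13.996 on them and lay between 13.94 and 14.14 over the 9 arrays.

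The other transcription factors and nuclear receptors of liver, a list of 20 of which 18 were measured, likewise had no member past the threshold. With insulin 9 were higher and 9 lower (median -0.01), with BI against no treatment 8 and 10 (median -0.04), and with BI against insulin 6 and 12 (median -0.06). Smallest in p with insulin was Gata4, a zinc finger factor of liver and sinusoidal endothelium, which read 6.56, 6.83 and 6.49 without treatment, 7.26, 7.07 and 7.26 with insulin, and 6.95, 7.14 and 6.52 with BI. All insulin arrays lay above the untreated ones (0.57 ± 0.21, 95% interval 0.08 to 1.06, limma adjusted p = 1.00). All 10 markers of sinusoidal endothelium were measured, and none passed. In the comparisons with the insulin group they lay mostly on the side of Gata4. With insulin against no treatment 9 of 10 were higher (median 0.32, beside 0.02 over all genes). In BI against insulin 10 of 10 were lower (median -0.35, beside -0.03), where Gata4 stood at -0.32. With BI against no treatment they lay mostly on the other side: 3 were higher and 7 lower (median -0.11), while Gata4 stood at 0.25 ± 0.21. The log2 of their summed signal was 12.71 to 13.25 without treatment, 13.08 to 13.42 with insulin and 12.61 to 13.08 with BI, and none was at 0 on any array. Of these markers 1 of 10 had, in each group, a mean below the median of all values. Their part in the Gata4 values was not tested. Nr0b2, the repressor also known as SHP, which is both a target and an inhibitor of HNF4A and NR5A2, stood at 0.56 ± 0.35 with insulin. Other genes of this list are named only for their rank by unadjusted p within it. The repressor Zhx2 stood at 0.39 ± 0.29 with insulin and 0.31 ± 0.29 with BI against no treatment. The oxysterol receptor Nr1h3 stood at -0.19 ± 0.17 and -0.25 ± 0.17 in the same order. The xenobiotic receptor Nr1i3 stood at 0.30 ± 0.25 with BI against no treatment, and Nr2f2 at 0.28 ± 0.19 with BI against insulin. The unadjusted p of these values was not small. It ran from 0.175 for Nr1h3 to 0.319 for Zhx2, both with BI against no treatment (limma).

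The 10 coregulators, of which 9 were measured, had 0 members past the threshold in each comparison. Ppargc1a, a coactivator that works with HNF4A on the genes of gluconeogenesis, read 8.65, 8.70 and 8.80 without treatment, 7.97, 8.47 and 8.00 with insulin, and 8.12, 8.00 and 8.32 with BI. All 6 treated arrays lay below all 3 untreated ones. The difference was -0.57 ± 0.20 with insulin (95% interval -1.03 to -0.12, limma adjusted p = 1.00) and -0.57 ± 0.20 with BI (-1.03 to -0.12, adjusted p = 0.999). These 2 values share the untreated arrays, and neither passed. The demethylase Kdm1a lay lower with BI than in either other group without overlap, by a small amount (-0.19 ± 0.15 against no treatment, -0.19 ± 0.15 against insulin). Nrip1, a corepressor of nuclear receptors, stood at 0.34 ± 0.30 with insulin and 0.49 ± 0.30 with BI against no treatment.

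Textbook target genes of the 9 factors numbered 28, of which 24 were measured, and 0 passed in any comparison. With insulin 15 were higher and 9 lower (median 0.01, beside 0.02 over all genes), with BI against no treatment 16 and 8 (median 0.05, beside 0.00038), and with BI against insulin 13 and 11 (median 0.01, beside -0.03). Cyp7a1, the rate-limiting enzyme of bile acid synthesis and a target of HNF4A and NR5A2, read 11.49, 12.16 and 13.06 without treatment, 11.71, 12.14 and 11.31 with insulin, and 10.76, 10.82 and 10.91 with BI. The 3 BI arrays were the lowest of the 9. BI differed from no treatment by -1.41 ± 0.40 (95% interval -2.34 to -0.47, limma adjusted p = 0.923) and from insulin by -0.89 ± 0.40 (-1.83 to 0.04). Tat, which breaks down tyrosine and is a target of FOXA and C/EBP proteins, read 13.31, 13.76 and 13.57 without treatment and 12.96, 13.21 and 12.94 with BI, with no overlap (-0.51 ± 0.19, 95% interval -0.96 to -0.06, limma adjusted p = 0.999). Pck1, the enzyme that commits carbon to gluconeogenesis, read 14.40, 14.24 and 14.30 with insulin and 13.95, 14.02 and 13.75 with BI (-0.40 ± 0.18, 95% interval -0.83 to 0.02). Abcg5 and Abcg8, the pair of proteins that form the canalicular sterol exporter, stood at 0.93 ± 0.48 and 0.93 ± 0.44 with insulin and at 0.80 ± 0.48 and 0.82 ± 0.44 with BI against no treatment, with untreated replicate 1 among the treated arrays. The urea cycle gene Otc stood at 0.22 ± 0.18 in BI against insulin.

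**Figure D5:**
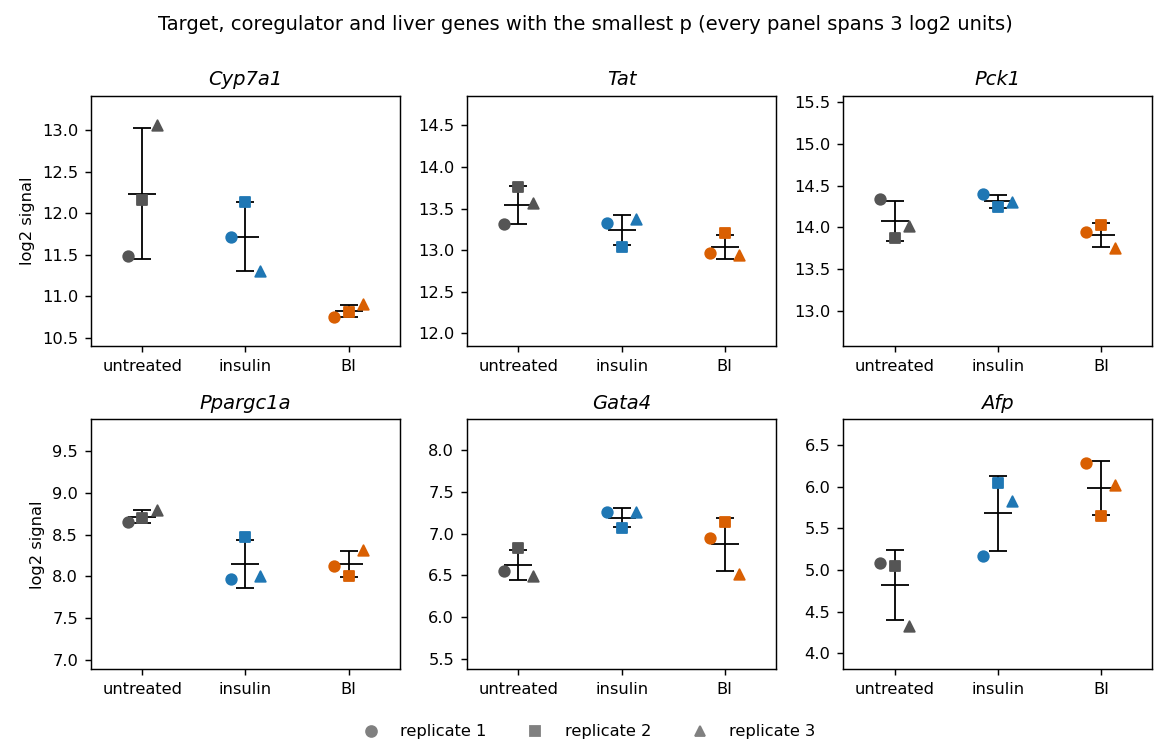
Log2 signal (y axis) of 6 genes in the untreated, insulin and BI groups (x axis), with symbols for arrays and bars for the mean ± SD of 3 arrays. The genes were picked from the lists of targets, coregulators and liver genes as among the smallest in p, so their separation is a description only. The BI arrays are the lowest of the 9 for Cyp7a1 (10.76 to 10.91), and the 6 treated arrays lie below the untreated ones for Ppargc1a and above them for Afp.

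Genes of the fetal liver were read to see whether the adult pattern held. Of 8 listed 7 were measured, and 6 of the 7 had group means below the median of all values on the arrays in each group, where it is not known whether a signal exceeds background. Afp, the albumin-like protein of fetal liver, read 5.08, 5.04 and 4.33 without treatment, 5.17, 6.05 and 5.83 with insulin, and 6.29, 5.65 and 6.02 with BI. Each treated array lay above each untreated one, by 0.86 ± 0.33 with insulin and 1.17 ± 0.33 with BI (95% intervals 0.10 to 1.62 and 0.41 to 1.93, limma adjusted p = 1.00 and adjusted p = 0.900), and neither value passed. These differences share the untreated arrays. Gpc3, a cell-surface proteoglycan, stood at -1.88 ± 0.90 and the growth factor Igf2 at 1.76 ± 0.92 with BI against no treatment, with groups that overlapped. The RNA-binding Igf2bp3, with a mean level of 7.77, stood at 0.34 ± 0.28 with insulin, and Dlk1 at 0.53 ± 0.69.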

How the data were processed

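Liver RNA of 9 samples, 3 per group, was hybridised as biotin-labelled cRNA, per the labels' protocols. The authors deposited log2 signals per probe set. The software, background correction and summarization behind them are not given in the sources used here. The deposited values have the same trimmed mean (2% from each end) on a linear scale on every array, and 152 to 247 probe sets per array stand at the lowest value, 0. They were used without further scaling, and no detection calls or depths were used. Array number limits the precision.

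Of 45101 probe sets 64 controls were left out. Through the platform annotation 34945 probe sets had 1 gene symbol, 932 several and 9160 none, and 34741 were matched to RefSeq by gene ID. The 3 groups were fitted together by group alone in limma 3.58.1 (R 4.3.3, lmFit and eBayes, two-sided), with Benjamini-Hochberg adjustment over 45037 probe sets and a threshold of 0.05. The script was tested on simulated data. Permutation tests used all orders of the arrays, and those within groups all orders inside each group. Of the other lists, members that passed are named, and if there were none, up to 4 genes with the smallest unadjusted p in a comparison. The most alike genes were taken from those with a mean of at least 8. The 9 factors and all lists were chosen with earlier results of these data known. The alternatives tried were a replicate block, leaving out each array, array weights, trend and robust fitting, a floor at 6, averaging all probe sets of a gene, fits of only the groups compared, removal of dim probe sets, and scaling by quantiles or by medians.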

Additional observations from a re-analysis of the deposited data

How the results depend on the processing

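Members called were 0 in each comparison under every alternative, and none of the 33 differences of the factors passed (limma, smallest adjusted p = 0.726). Of these differences 17 kept their direction in all alternatives run, among them all those of Foxa3 and Cebpb, and 16 changed sign in at least 1. Sign changes outside the left-out arrays were as follows. With quantile normalization the second Onecut1 probe set stood at 0.0013 in BI against insulin, and with array weights at 0.034. With equal array medians Hnf4a stood at -0.022 with insulin and Cebpa at 0.0098 in BI against insulin, where array weights gave Cebpa 0.014. With gene means, over all probe sets of each gene, Hnf4a stood at -0.12 with insulin and, in BI against insulin, Hnf4a at 0.019 and Nr5a2 at -0.22. Leaving out 1 array at a time gave these ranges with insulin: Cebpa -0.21 to 0.18, Foxa1 -0.24 to 0.38, Foxa2 -0.17 to 0.39 and Hnf4a -0.013 to 0.094. With BI against no treatment they were Cebpa -0.22 to 0.16, Foxa1 -0.10 to 0.52, Prox1 -0.21 to 0.21, Nr5a2 -0.086 to 0.044 and Hnf4a -0.081 to 0.025. In BI against insulin they were Cebpa -0.11 to 0.14, Foxa1 -0.15 to 0.40, Prox1 -0.032 to 0.55, Onecut1 -0.84 to 0.43 and its second probe set -0.37 to 0.27. Foxa3 in BI against insulin ran from -0.82 to -0.49. Over all probe sets, calls in BI against no treatment (5) were 1 once probe sets below the median level were left out, 0 with only the groups compared, 0 with the floor at 6, 2 with gene means and 0 to 2 without single arrays. In BI against insulin (0) they were 1 with the filter, 1 with gene means and 0 to 1 without single arrays. Across probe sets, the deviations of same-numbered arrays were hardly correlated (r from -0.16 to 0.15), so the numbers are not taken as pairs. Some levels did follow the replicate number. Array medians and Alb rose with it in every group. Alb read 15.15, 15.36 and 15.44 without treatment, 15.18, 15.31 and 15.41 with insulin, and 15.18, 15.29 and 15.45 with BI. The mean level of the hepatocyte markers rose so in both treated groups, but not without treatment (14.05, 13.96 and 14.13). The cause of this order was not tested. A replicate block gave 0 calls in BI against no treatment and changed no call for the factors. The causes of these changes were not tested, beyond the smaller number of samples or probe sets that some alternatives use.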
